A study of Rattus norvegicus with 16 samples.

Results

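Voltage-gated sodium and calcium channels were followed in the rat hippocampus 24 h after traumatic brain injury (TBI) with gene expression arrays. Non-control probes named for an Scn gene (a number, then a or b) or for a Cacna, Cacnb or Cacng gene were taken, which gave 34 genes on 44 probes reported here, out of 26583 genes or transcripts named by 30367 probes. Each gene was read from its brightest probe, and the other probes served as a check. The members were 8 sodium channel alpha subunits, 3 sodium channel beta subunits, 8 calcium channel alpha1 subunits, 4 alpha2delta subunits, 4 calcium channel beta subunits and 7 gamma subunits. Channel genes that the array names in another way were not analysed here.

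The samples were hippocampi of adult male Sprague-Dawley rats, with 1 single-colour array a rat. Naïve rats (3 arrays) were neither anesthetized nor handled, Sham rats (2 arrays) were prepared for injury but not injured, and TBI rats (3 arrays) received a severe parasagittal fluid percussion injury. The other injured rats were given PMI-006, a compound known here by its code (3 arrays, TBI+PMI-006), or JM6, which acts on kynurenine 3-monooxygenase (3 arrays, TBI+JM6), by gavage, or estrogen (2 arrays, TBI+E2, labelled E33, subcutaneous in the labels, intraperitoneal in the methods). A vehicle for the TBI group is not given in the sources used here. Values are the signal of a probe divided by the 75th percentile of its array, called the level below, and fold changes are on the log2 scale of that level.

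Sodium channel alpha subunits form the pore that carries the upstroke of the action potential, and the beta subunits set its gating and bring it to the membrane. Calcium channel alpha1 subunits form pores for transmitter release, bursting and signalling to the nucleus, while alpha2delta and beta subunits control how many channels reach the surface. Most of the gamma subunits measured here are known from brain as TARPs, auxiliary proteins that carry AMPA-type glutamate receptors to synapses.

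Scanner signals were read on 4 slides of 4 arrays in 2 scan sessions. Naïve, Sham and TBI arrays were scanned in one session and the drug arrays in the other, so that drug and session cannot be told apart against TBI. Between 16282 and 18245 probes were well above background on the 8 Naïve, Sham and TBI arrays, and between 20259 and 24984 on the 8 drug arrays. Neuronal markers were present on every array, with at least 10 of 11 above background. Choroid plexus markers, summed over 6 genes, reached 77.8 on Naïve array 2, 123 on Sham array 1 and 154 on TBI+PMI-006 array 1, and lay between 0.219 and 7.65 on the other arrays. In whole tissue, fewer cells of a type and less RNA per cell cannot be told apart.

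Of the 34 channel genes, 18 were well above background on all 16 arrays. The filter on dim probes left 27 genes to test, and a gene that passed it through a single group had to be bright there. The 7 genes not tested were the sodium channels Scn8a, Scn9a, Scn10a and Scn11a, the retinal calcium channel Cacna1f, Cacna2d4 and Cacng6. Of these, 3 were above background on no array and 4 on only 1 to 5 arrays. Scn10a and Scn11a are known as channels of sensory neurons, while Scn8a, a main sodium channel of the axon initial segment, was read by a probe whose level never passed 0.0234.

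Scn1a, the sodium channel of fast-spiking interneurons, was above background on all 16 arrays (probe at rn4 chr3:48238557-48238616, minus strand). Its level was 1.01, 0.92 and 0.726 in Naïve, 0.526 and 0.694 in Sham, and 0.588, 0.753 and 0.592 in TBI rats. The Naïve arrays lay above both Sham arrays, and Naïve and TBI arrays overlapped. With drug, the level was 0.622, 0.732 and 0.592 in TBI+PMI-006, 0.609, 0.734 and 0.862 in TBI+JM6, and 0.856 and 1.09 in TBI+E2 rats. In group means the order was TBI+E2 (0.974 ± 0.168, SD, n = 2), Naïve (0.887 ± 0.147, n = 3), TBI+JM6 (0.735 ± 0.126, n = 3), TBI+PMI-006 (0.649 ± 0.0735, n = 3), TBI (0.645 ± 0.0943, n = 3) and Sham (0.61 ± 0.119, n = 2).

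No tested pair of neighbours in that order passed for Scn1a. TBI vs. Sham was 0.08 on the log2 scale (95% interval -0.40 to 0.57, adjusted p = 0.848), TBI+PMI-006 vs. TBI was 0.01 (-0.42 to 0.45, adjusted p = 0.958) and TBI+JM6 vs. TBI+PMI-006 was 0.17 (-0.26 to 0.60, adjusted p = 0.841). Against Naïve rats the change was -0.46 in TBI (adjusted p = 0.213) and -0.54 in Sham (adjusted p = 0.168, and 0.0481 after quantile normalization, with a change of -0.62). Among the drug groups the widest gap was between TBI+PMI-006 and TBI+E2 (-0.58, adjusted p = 0.247). Naïve and drug groups were not compared.

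The 5 channel genes whose 6 group means ran most like those of Scn1a were Cacna1b, Cacng3, Cacna2d1, Cacnb3 and Cacna2d3. The measure was the root mean square distance of log2 group means, each gene centred on its own mean. Cacna1b, which encodes the N-type channel of presynaptic terminals, was closest at 0.117, against 0.272 for Cacng3, 0.283 for Cacna2d1, 0.288 for Cacnb3 and 0.381 for Cacna2d3. After quantile normalization the list changed: Cacna1b (0.104), Cacna2d1 (0.258) and Cacng3 (0.282) were still among the closest 5, and Cacna1c (0.269) and Cacna1g (0.271) took the place of Cacnb3 and Cacna2d3.

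TBI was compared with Sham to find what the injury adds to the surgery. In this comparison 5 of the 27 tested channel genes fell and none rose, that is 18.5%, where 9.41% of all tested probes were called, 2.93% higher and 6.49% lower. The genes that fell were Cacnb1, Cacnb3, Cacng2, Cacng7 and Cacng8. The Cacnb genes encode auxiliary channel subunits, and these Cacng genes encode AMPA receptor auxiliary proteins. Their probes lie, in rn4, at chr10:86764289-86764348 (Cacnb1), chr7:137394172-137394231 (Cacnb3), chr7:115913454-115913513 (Cacng2), chr1:64114264-64114323 (Cacng7) and chr1:64069079-64071811 (Cacng8, across a gap). None of the 7 tested sodium channel subunits and none of the 7 tested calcium channel pores was called. With 9.41% of all tested probes called, sets of 7 are too small to tell this from the background. The median change was -0.35 over the 27 genes and -0.03 over all tested probes. At an unadjusted p under 0.05 there were 12 channel genes of 27, where 26% of all tested probes reached it, and 15 had no overlap between TBI and Sham arrays, where 41.9% of all tested probes had none. The 27 changes with their standard errors are plotted beside those of both comparisons with Naïve rats.

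**Figure D1:**
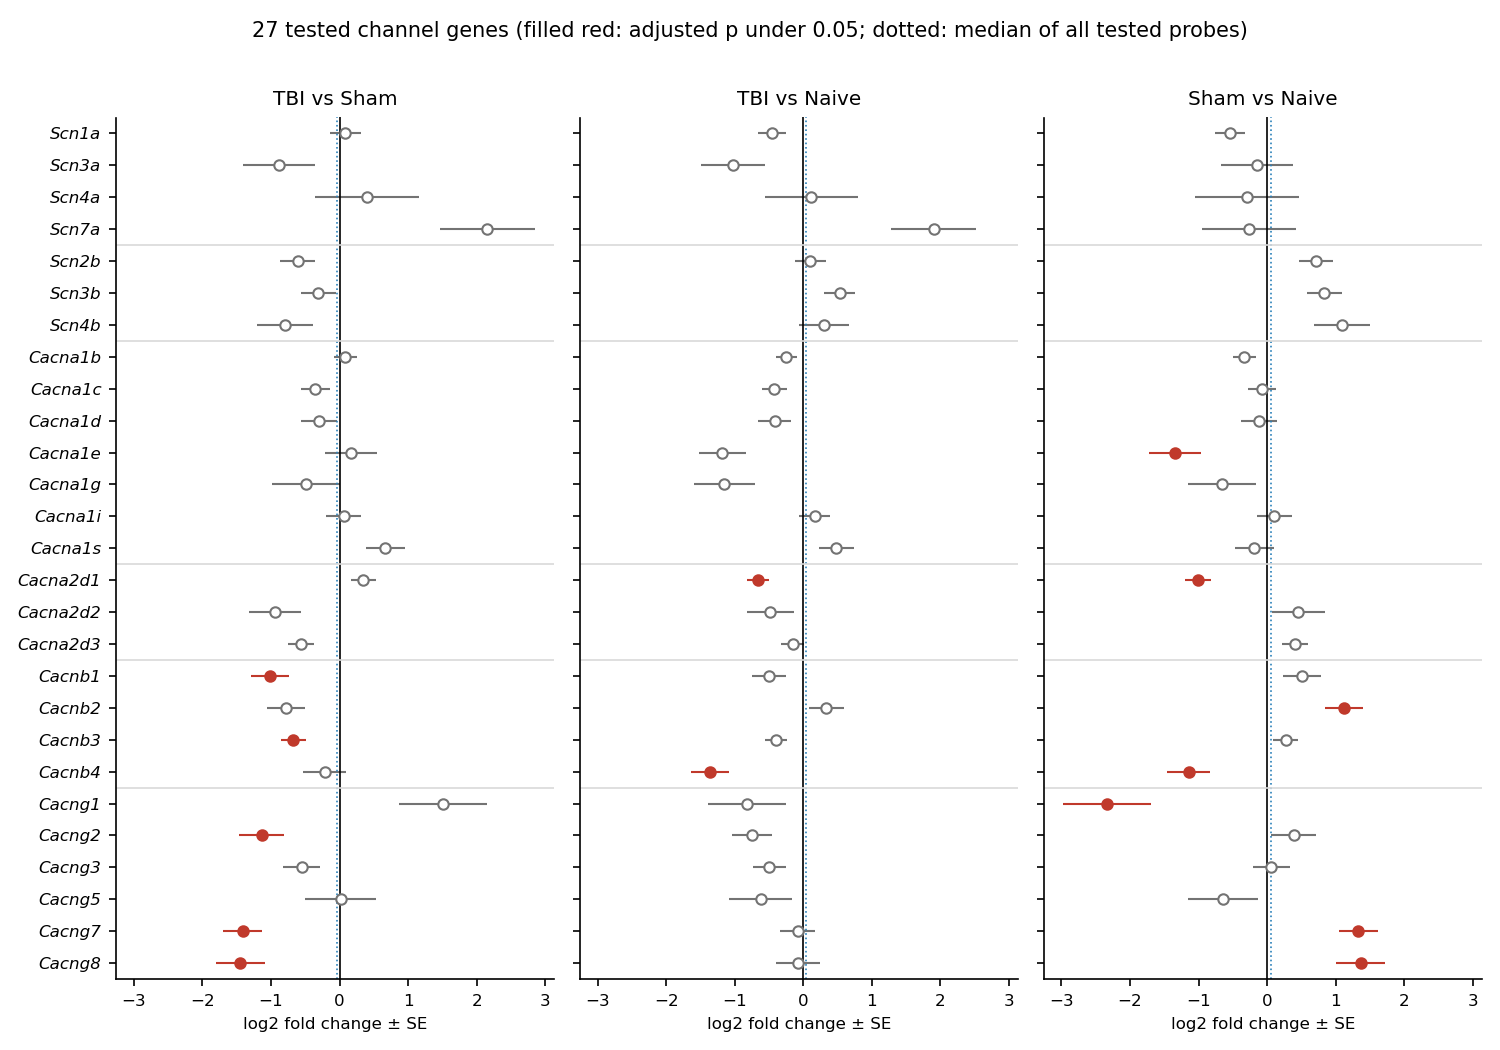
Log2 fold change with its standard error (x axis) of the 27 tested channel genes (y axis, grouped from sodium channel alpha subunits at the top to gamma subunits at the bottom) in each comparison among the Naïve, Sham and TBI groups. Filled red points passed an adjusted p of 0.05 and the dotted line is the median of all tested probes. In TBI vs. Sham the 5 red points, from -0.67 to -1.45, belong to Cacnb1, Cacnb3, Cacng2, Cacng7 and Cacng8.

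The sodium channel beta subunits did not pass. Scn2b, which joins the pore through a disulfide bond, had levels of 0.0647 and 0.105 in Sham, and 0.0638, 0.0637 and 0.0383 in TBI rats. Scn4b, known for its part in resurgent current, had 0.479 and 0.663 in Sham and 0.463, 0.292 and 0.254 in TBI. In both genes the TBI arrays lay below the Sham arrays, but the nearest TBI array was close to them. The log2 changes were -0.61 (Scn2b), -0.31 (Scn3b) and -0.80 (Scn4b), with adjusted p from 0.138 to 0.479.

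Scn7a, which encodes a sodium sensor known from glia, was higher on the TBI arrays but did not pass the test. Its level was 0.0096, 0.0385 and 0.033 in TBI rats, and 0.00467 and 0.00569 in Sham rats. Of the TBI arrays, 2 of 3 were above background, and no Naïve or Sham array was. The difference was at least 1.83-fold, with an adjusted p of 0.0667 for the fitted change, and the other probe of the gene read 0.00635, 0.0452 and 0.0407 in TBI with the same 2 arrays above background (adjusted p = 0.0851). Summed levels of 6 leukocyte markers were 1.64, 7.48 and 1.7 on the TBI arrays in the same order and 1.22 and 1.64 on the Sham arrays, with Mpo above background on none of them. Their part in the Scn7a values was not tested.

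Among calcium channel beta subunits, which bind the alpha1 pore from the cytoplasm and carry it to the membrane, 2 of 4 fell. Cacnb3, of N- and L-type channels in neurons, had levels of 4.86 and 5.58 in Sham and 3.89, 3.02 and 2.98 in TBI rats. Cacnb1 had 0.687 and 0.903 in Sham and 0.564, 0.335 and 0.312 in TBI. In both genes all TBI arrays lay below both Sham arrays. The log2 change was -0.67 ± 0.18 for Cacnb3 (adjusted p = 0.0394) and -1.02 ± 0.28 for Cacnb1 (adjusted p = 0.0399), and the other probe of Cacnb1 gave -0.92 ± 0.25 (adjusted p = 0.0388). Cacnb2 (-0.78, adjusted p = 0.0964) and Cacnb4 (-0.22, adjusted p = 0.695) were not called.

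Of the 6 tested gamma subunits, 3 fell, and all 3 are TARPs. Cacng2, or stargazin, had levels of 1.46 and 1.72 in Sham and 1.26, 0.576 and 0.516 in TBI rats. Cacng8, the TARP most typical of hippocampal pyramidal neurons, had 0.196 and 0.263 in Sham and 0.123, 0.0687 and 0.0684 in TBI. Cacng7 had 0.116 and 0.16 in Sham and 0.0641, 0.0376 and 0.0562 in TBI. TBI arrays were below Sham arrays throughout, and TBI array 1 was the nearest to Sham in each gene. The log2 change was -1.14 ± 0.33 for Cacng2 (adjusted p = 0.0462), -1.45 ± 0.36 for Cacng8 (adjusted p = 0.0279) and -1.41 ± 0.29 for Cacng7 (adjusted p = 0.0137). Cacng3, a further TARP, had a change of -0.55 (adjusted p = 0.22). Cacng1 and Cacng5 were above background on no TBI or Sham array, so no fold is given.

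The 3 alpha2delta subunits tested, targets of gabapentin in part, were not called in TBI vs. Sham. Cacna2d1 had a change of 0.34 (adjusted p = 0.261) and Cacna2d3 of -0.56 (adjusted p = 0.0799), and Cacna2d2 was above background on 1 Sham array only. Among the pores, Cacna1c, the main neuronal L-type channel, had a change of -0.35 (adjusted p = 0.307), Cacna1b of 0.08 (adjusted p = 0.793) and the T-type channel Cacna1i of 0.06 (adjusted p = 0.908). The other T-type pore, Cacna1g, had a change of -0.49 (adjusted p = 0.565), Cacna1e of 0.17 (adjusted p = 0.818), Cacna1d of -0.30 (adjusted p = 0.506) and Cacna1s of 0.67 (adjusted p = 0.152). Scn4a, the sodium channel of skeletal muscle, was above background on no TBI or Sham array.

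Promoter sequence is shown for 3 of the genes called lower in TBI vs. Sham and, for contrast, for Cacna2d1, which was not called there. The 250 bases before the annotated start were read on the strand of the gene from RefSeq (GRCr8), where 25 of the 34 members had at least 1 start, and Scn1a, Cacnb1 and Cacng7 had none. The windows are chr7:131666301-131666550 (plus strand) for Cacnb3, chr1:74691004-74691253 (minus strand) for Cacng8, chr7:111577758-111578007 (minus strand) for Cacng2 and chr4:20330148-20330397 (minus strand) for Cacna2d1, which has 3 listed starts. Capitals mark GC boxes, the letters GGGCGG. Each motif was searched on both strands, with overlaps counted.
Cacnb3: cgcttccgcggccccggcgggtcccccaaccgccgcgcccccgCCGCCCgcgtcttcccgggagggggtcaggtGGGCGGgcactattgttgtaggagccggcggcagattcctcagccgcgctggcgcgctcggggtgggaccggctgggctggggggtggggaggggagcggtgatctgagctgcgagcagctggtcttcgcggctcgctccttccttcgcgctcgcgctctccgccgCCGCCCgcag
Cacng8: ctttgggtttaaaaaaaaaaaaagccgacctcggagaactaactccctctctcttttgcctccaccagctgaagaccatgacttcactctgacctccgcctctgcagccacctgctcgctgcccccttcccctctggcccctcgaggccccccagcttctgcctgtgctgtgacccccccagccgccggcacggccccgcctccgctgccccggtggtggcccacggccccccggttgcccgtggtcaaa
Cacng2: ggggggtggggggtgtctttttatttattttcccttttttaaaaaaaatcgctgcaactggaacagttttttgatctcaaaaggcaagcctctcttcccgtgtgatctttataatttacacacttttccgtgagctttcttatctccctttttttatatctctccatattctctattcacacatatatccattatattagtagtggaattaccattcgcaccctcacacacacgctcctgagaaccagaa
Cacna2d1: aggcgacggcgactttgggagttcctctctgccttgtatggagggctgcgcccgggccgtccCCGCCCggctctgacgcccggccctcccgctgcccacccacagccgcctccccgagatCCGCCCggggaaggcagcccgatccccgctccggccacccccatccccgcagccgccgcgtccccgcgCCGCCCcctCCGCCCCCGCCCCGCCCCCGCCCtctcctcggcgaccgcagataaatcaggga

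Cacnb3 held 3 GC boxes and 35 CpG dinucleotides, Cacng8 none and 14, Cacng2 none and 5, and this window of Cacna2d1 7 and 32. Cacng2 held TATAAA 2 times, both on the strand opposite to the gene. All windows of the table had a median of 5 CpG. A GC box was present in 14 of 28 member windows (50%) and in 30.5% of 33465 such windows in the table, and the cyclic AMP element TGACGTCA in 0 of 28 against 1.59%. TATAAA was present in 2 of 28 against 12.9%. These counts describe letters in the window only, and of the 3 printed genes that fell only Cacnb3 held a GC box.

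Of all tested probes, 9.41% were called in TBI vs. Sham, 6.49% of them all as lower. Among 11 sodium channel partners, 1 was called lower there and none rose. This was Fgf11, an intracellular channel-binding factor that was above background on no TBI array, so no fold is given (adjusted p = 0.0279). Of 19 calcium channel partners tested, 4 fell and none rose. These were Calm3, a calmodulin gene (-0.70 ± 0.16, adjusted p = 0.0204), Cabp1, a calcium-binding protein that modulates the pore (-1.24 ± 0.30, adjusted p = 0.0249), Rims1, which tethers channels at the release site (-1.53 ± 0.435, adjusted p = 0.0453), and Stac, an adaptor of L-type channels (-1.22 ± 0.31, adjusted p = 0.029). The list medians were -0.19 and -0.42, against -0.03 for all probes.

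Some markers of cell types were also called in TBI vs. Sham. Of 11 neuronal markers 3 fell in TBI vs. Sham (Snap25, Syn1 and Slc17a7) and none rose, and their summed level was 37.3 to 44.7 in Sham, 24.1 to 31.6 in TBI and 27.7 to 33.3 in Naïve rats. Of 5 oligodendrocyte markers 2 fell (Cnp and Mobp), with sums of 78.7 and 87.8 in Sham and 47.5 to 91.3 in TBI rats. Of 7 hippocampal field markers 2 fell (C1ql2 and Fibcd1), and Prox1 of the dentate gyrus was above background on no Sham or TBI array. Of 10 microglial markers 2 rose (Itgam and Cd68) and 2 fell (P2ry12 and Tmem119), of 5 tested leukocyte markers 2 rose (S100a8 and S100a9), and of 6 endothelial markers 1 fell (Cldn5). None of the tested markers of astrocytes (7), oligodendrocyte precursors (3), choroid plexus (5), thalamus (3) or skeletal muscle (4) was called. Their part in the channel changes was not tested.

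No slide held both TBI and Sham arrays, and with the slide as a fixed block in the 8 arrays of that session the 5 changes were -0.63 to -1.69 and none was called (adjusted p from 0.637 to 0.846). The count of 5 fell to 1 or 0 when either Sham array was left out (1 without Sham array 1, 0 without Sham array 2), to 1 without TBI array 2 or 3, and rose to 7 without TBI array 1. After quantile normalization 1 gene was lower (Cacnb1) and 1 higher (Cacng1, not well above background in either group), where 7.97% of all tested probes were called.

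**Figure D2:**
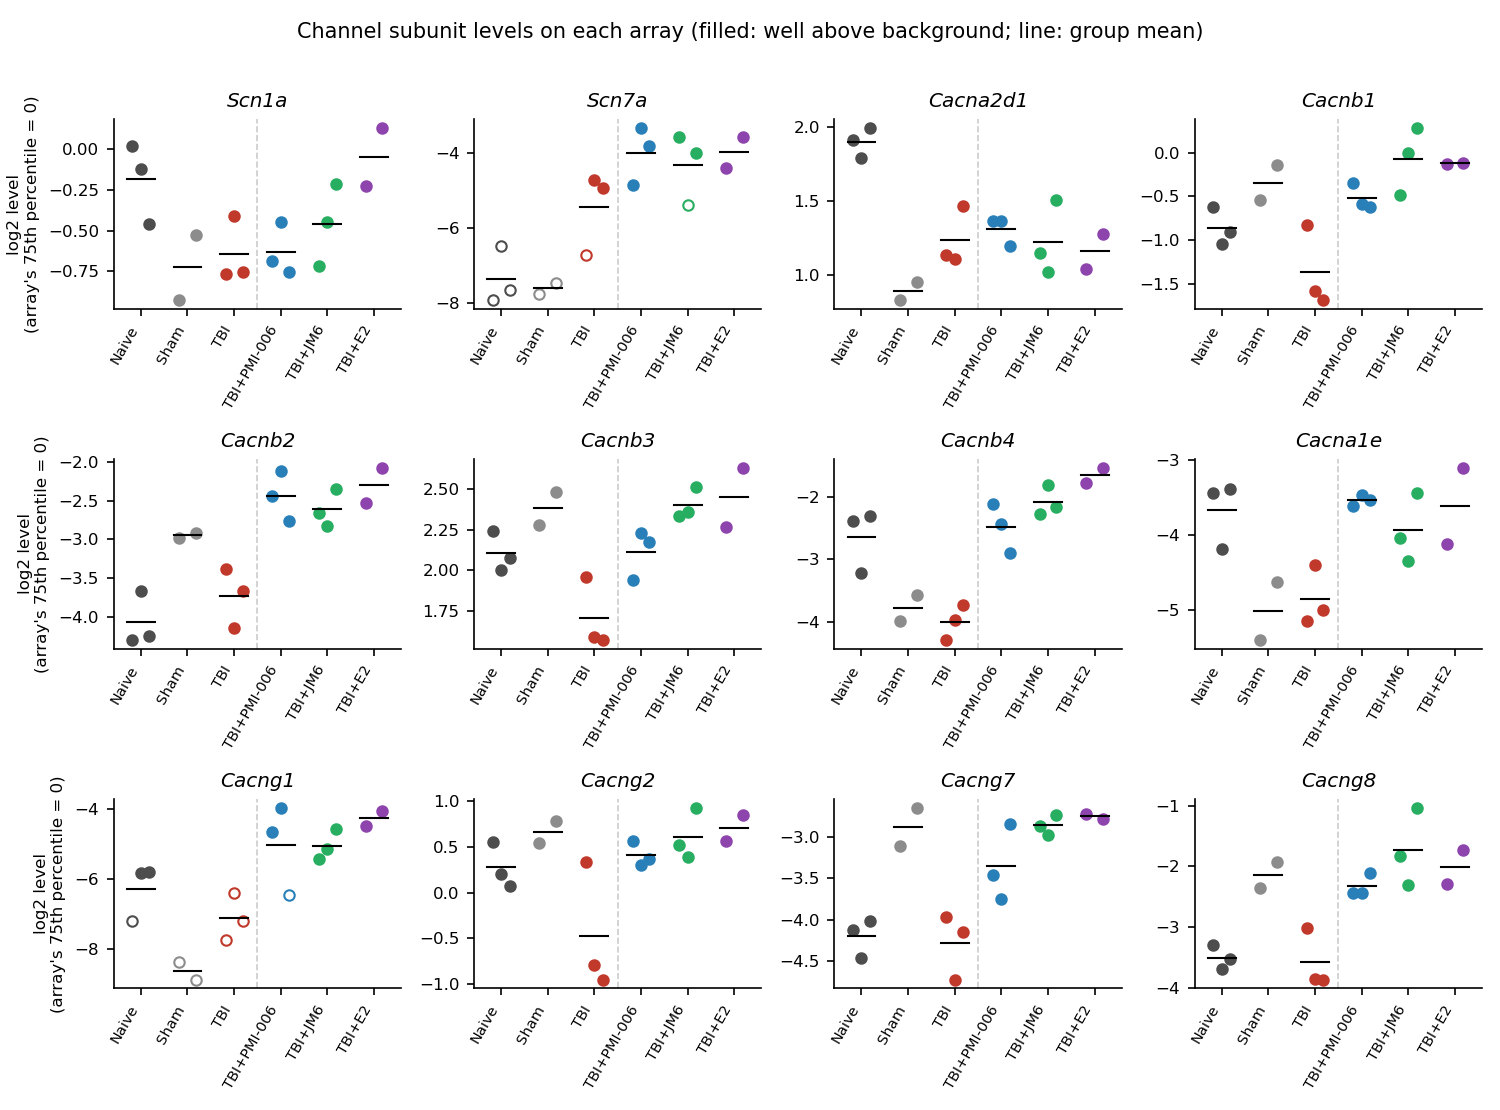
Log2 level of 12 channel genes on each of the 16 arrays (y axis, where 0 is the 75th percentile of the array) by group (x axis), with the group mean as a line. Filled points were well above background, open points were not, and the dashed line parts the 2 scan sessions. Cacng7 and Cacng8 are high in Sham and low in Naïve and TBI rats, while Cacna2d1, Cacnb4 and Cacna1e are highest in Naïve rats within that session.

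Sham was compared with Naïve to find what anesthesia and surgery do alone. In this comparison 7 of the 27 channel genes were called, 3 higher and 4 lower, that is 25.9%, where 8.08% of all tested probes were called, 6.57% higher and 1.52% lower. The median change was -0.07, and over all tested probes it was 0.06. This comparison and TBI vs. Sham share the Sham arrays. After quantile normalization none was higher and 4 were lower (Scn1a, Cacna2d1, Cacnb4 and Cacng1), against 5.76% of all tested probes.

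The genes that rose from Naïve to Sham were Cacnb2, Cacng7 and Cacng8. Cacng8 had levels of 0.102, 0.0772 and 0.0864 in Naïve rats (log2 change 1.37 ± 0.36, adjusted p = 0.0358), and Cacng7 had 0.0574, 0.0453 and 0.0617 (1.33 ± 0.29, adjusted p = 0.0156). Against Naïve, TBI differed by -0.08 in Cacng8 (95% interval -0.77 to 0.61) and -0.08 in Cacng7 (-0.63 to 0.47), and in both genes no Sham array overlapped with either other group. Cacnb2, a beta subunit best known from heart, had levels of 0.0511, 0.0788 and 0.053 in Naïve and 0.127 and 0.133 in Sham rats (1.12 ± 0.28, adjusted p = 0.0299).

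The genes that fell from Naïve to Sham were Cacna1e, Cacna2d1, Cacnb4 and Cacng1. Cacna2d1, an alpha2delta subunit and gabapentin target, had levels of 3.76, 3.46 and 3.97 in Naïve and 1.78 and 1.94 in Sham rats, with no overlap, and fell 2.01-fold (log2 change -1.01 ± 0.18, adjusted p = 0.00857). Cacnb4, a beta subunit whose loss causes ataxia and seizures in mice, had 0.192, 0.107 and 0.203 in Naïve and 0.0632 and 0.0842 in Sham rats (-1.14 ± 0.31, adjusted p = 0.0403). Its other probe was above background on 1 of these 5 arrays and had a change of -0.03 (adjusted p = 0.967). Cacna1e, the R-type pore, had 0.0921, 0.0549 and 0.0952 in Naïve and 0.0237 and 0.0402 in Sham rats (-1.34 ± 0.38, adjusted p = 0.0471). Its other probe was above background on 1 of 3 Naïve and 1 of 2 Sham arrays. Averaged over both probes the change was -1.16 and was not called (adjusted p = 0.147). Cacng1, a subunit of the muscle channel, was above background on 2 of 3 Naïve and no Sham arrays, and was at least 1.02-fold lower in Sham (adjusted p = 0.0436).

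Within the slide that held Naïve arrays 1 and 2 and both Sham arrays, the differences were 1.42 for Cacng7, 1.36 for Cacng8, 1.03 for Cacnb2, -0.96 for Cacna2d1, -0.98 for Cacnb4, -1.20 for Cacna1e and -2.09 for Cacng1, and none passed in the fit with the slide as a fixed block (adjusted p from 0.173 to 0.295). Leaving out 1 array gave 1 to 5 called genes, with 3, 5 and 2 without Naïve array 1, 2 and 3, and 1 without either Sham array. Of the partners, Cabp1 (1.11 ± 0.30, adjusted p = 0.0383) and Stac (1.28 ± 0.31, adjusted p = 0.0246) rose and none fell, and of the neuronal markers Syt1, Syn1 and Slc17a7 rose. Among the other marker lists Gfap (astrocytes), P2ry12 (microglia), Cd3e (leukocytes), Mobp (oligodendrocytes) and Wfs1 (hippocampal fields) rose, and Rora (thalamus) fell. Their part in the channel changes was not tested.

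In TBI vs. Naïve, 2 of the 27 channel genes fell and none rose, that is 7.41%, where 4.71% of all tested probes were called, 2.98% higher and 1.73% lower. Cacna2d1 had levels of 2.19, 2.15 and 2.76 in TBI rats, all below the Naïve arrays (log2 change -0.66 ± 0.17, adjusted p = 0.039). Cacnb4 had 0.0512, 0.0636 and 0.0758 in TBI rats, again without overlap (-1.36 ± 0.28, adjusted p = 0.0188). Its other probe was above background on 1 of 3 Naïve arrays and no TBI array. The fitted change there, -0.57 (adjusted p = 0.164), rests on such dim values. Both genes were also lower in Sham than in Naïve rats, and TBI vs. Sham was not called for either, with 95% intervals of -0.06 to 0.74 for Cacna2d1 and -0.89 to 0.45 for Cacnb4. The 2 comparisons with Naïve share its arrays. Cacna1e had levels of 0.0281, 0.0472 and 0.0313 in TBI rats and did not pass (-1.18, adjusted p = 0.0671).

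On the slide shared by Naïve array 3 and the TBI arrays, the difference was -0.76 for Cacna2d1 and -1.70 for Cacnb4, with no call in the blocked fit (adjusted p = 0.499 and 0.307). The count was 0 without Naïve array 1, Naïve array 3 or TBI array 2, 1 without TBI array 3 and 3 without TBI array 1. Of the marker lists, 4 of 5 tested leukocyte markers rose in TBI vs. Naïve (Ptprc, S100a8, S100a9 and Cd3e), as did C1qc and Cd68 of microglia and Gfap of astrocytes, while Aldh1l1 of astrocytes and C1ql2 of the dentate gyrus fell. Summed levels of the 10 microglial markers were 14.2 to 16.2 in Naïve and 25.1 to 27.3 in TBI rats. Their part was not tested. The median change over the 27 genes was -0.42, and 0.04 over all tested probes. After quantile normalization the same 2 genes were called, against 5.55% of all tested probes.

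Each drug group was compared with the same 3 TBI arrays, to see where channel levels differed from injury without drug. Levels on the drug arrays were higher for most probes: the median change of all tested probes was 0.995 in TBI+JM6, 0.79 in TBI+PMI-006 and 1.08 in TBI+E2 vs. TBI, and close to 0 after quantile normalization. Channel genes called higher were 20 of 27 in TBI+JM6 (74.1%, against 70.1% of all tested probes called and 69.9% called higher), 17 in TBI+PMI-006 (63%, against 56.7%, nearly all of them higher) and 23 in TBI+E2 (85.2%, against 70.3% called and 70.2% called higher), and none was called lower. The medians over the channel genes were 1.13, 1.17 and 1.40. All 4 calcium channel beta and all 6 tested gamma subunits were called higher in TBI+JM6 and TBI+E2. In TBI+PMI-006 it was 3 and 5 of them. Cacng1, Cacng5, Scn3a, Scn4a, Scn7a and Cacna2d2 passed the filter on dim probes through drug groups alone. Such genes had to be bright in a drug group to be tested, so their calls are no separate evidence of a rise. The shares of all tested probes rest on the same filter. After quantile normalization, 5 channel genes were higher and 4 lower in TBI+JM6 (background 27.2%), 3 and 3 in TBI+PMI-006 (19.2%), and 3 and 2 in TBI+E2 (20.4%). The 5 genes that fell in TBI vs. Sham were thus called higher in TBI+JM6 and TBI+E2, but in no drug group after quantile normalization. In TBI, TBI+JM6, TBI+PMI-006 and TBI+E2, mean levels were 0.404, 0.975, 0.701 and 0.92 for Cacnb1. Cacnb3 had 3.29, 5.28, 4.34 and 5.49, and Cacng2 had 0.784, 1.55, 1.33 and 1.65. Cacng7 had 0.0526, 0.139, 0.102 and 0.149, and Cacng8 had 0.0867, 0.324, 0.201 and 0.253.

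Since the whole array moved, the genes named below are given on both scales. None of them was called in TBI vs. Sham with the percentile scaling. Scn3a, a sodium channel known for its high level before birth, Cacna2d2, an alpha2delta subunit of Purkinje cells and interneurons, and Cacng5, an atypical TARP, were above background on none of the TBI arrays, so their rises are given as bounds, which set no order among them. Scn3a was above background on none of the 8 Naïve, Sham and TBI arrays (0.00403, 0.0043 and 0.00587 in TBI) and on all 8 drug arrays, where its level was 0.0667, 0.0585 and 0.0454 in TBI+PMI-006, 0.0587, 0.0481 and 0.0825 in TBI+JM6, and 0.0672 and 0.06 in TBI+E2. The filter on dim probes thus kept it through the drug groups alone. It was at least 3.85-fold higher than TBI in TBI+JM6, 3.51-fold in TBI+PMI-006 and 3.97-fold in TBI+E2. The adjusted p of 3.41e-05, 8.05e-05 and 8.16e-05 is for the fitted changes, which rest on TBI values not above background. With normexp background correction it was called in neither TBI+JM6 (adjusted p = 0.17) nor TBI+PMI-006. In TBI+E2, 3 of 17 alternatives lost the call (adjusted p up to 0.718). After quantile normalization the log2 bounds were 0.23, 0.32 and -0.01 (adjusted p = 0.0202, 0.0221 and 0.0647).

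Cacna2d2 had levels of 0.00497, 0.0084 and 0.00585 in TBI rats, none above background. On the drug arrays it had 0.0783, 0.0568 and 0.0358 (PMI-006), 0.0612, 0.0812 and 0.092 (JM6) and 0.074 and 0.0839 (E2), all above background. No drug array overlapped with TBI. The rise was at least 4.82-fold in TBI+JM6, 3.39-fold in TBI+PMI-006 and 4.93-fold in TBI+E2. For the fitted changes the adjusted p was 5.33e-06, 2.62e-05 and 1.29e-05, and the filter on dim probes kept Cacna2d2 through the drug groups alone. It passed after quantile normalization in each drug group, with log2 bounds of 0.63, 0.27 and 0.42 (adjusted p = 0.00108, 0.00456 and 0.00464). In each drug group 1 alternative lost the call, with adjusted p of 0.0978 in TBI+JM6, 0.985 in TBI+PMI-006 and 0.405 in TBI+E2. In TBI+JM6 and TBI+PMI-006 that alternative was normexp background correction.

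Cacng5, with 0.00461, 0.00404 and 0.00408 in TBI rats, was above background on all TBI+JM6 arrays (0.0459, 0.0369 and 0.0679), on 1 of 2 TBI+E2 and on no TBI+PMI-006 array. The filter on dim probes kept Cacng5 through TBI+JM6 alone, a group where it was high. The rise was at least 3.04-fold in TBI+JM6 and 2.7-fold in TBI+E2, and no fold is given for TBI+PMI-006. The adjusted p of 4.12e-05 and 0.00015 is for the fitted changes, which rest on TBI values not above background. With normexp background correction it was not called in TBI+JM6 (adjusted p = 0.263). After quantile normalization Cacng5 was still called in TBI+JM6 (adjusted p = 0.015) but not in TBI+E2 (adjusted p = 0.0802) or TBI+PMI-006 (adjusted p = 0.571), and no fold is given on that scale, where the log2 bounds were below 0.

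Cacna1d, the L-type pore that opens at low voltage and paces neurons, rose from values that were above background on 2 of 3 TBI arrays. Its level was 0.0294, 0.0387 and 0.0302 in TBI, 0.133, 0.177 and 0.123 in TBI+PMI-006, 0.134, 0.123 and 0.194 in TBI+JM6, and 0.14 and 0.181 in TBI+E2 rats. Every drug array was above every TBI array. The log2 change was 2.18 ± 0.24 in TBI+JM6 (adjusted p = 1.2e-05) and 2.13 ± 0.24 in TBI+PMI-006 (adjusted p = 2.71e-05), and after quantile normalization 0.83 (adjusted p = 0.00552) and 0.99 (adjusted p = 0.00358). In each of these groups 1 of 18 alternatives lost the call, with adjusted p of 0.197 in TBI+JM6 and 0.801 in TBI+PMI-006.

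On the TBI arrays Cacng1 read 0.00469, 0.0119 and 0.00684, none of them above background. Its level was 0.0396, 0.0638 and 0.0114 in TBI+PMI-006, 0.0234, 0.0284 and 0.0416 in TBI+JM6, and 0.0448 and 0.0603 in TBI+E2 rats, and 2 of 3, 3 of 3 and 2 of 2 of these arrays were above background. The dimmest TBI+PMI-006 array overlapped with TBI, and all TBI+JM6 and TBI+E2 arrays lay above every TBI array. The filter on dim probes kept Cacng1 through TBI+JM6 and TBI+E2 alone. Cacng1 was at least 1.92-fold higher in TBI+PMI-006, 1.89-fold in TBI+JM6 and 3.25-fold in TBI+E2. For the fitted changes the adjusted p was 0.00841, 0.00684 and 0.00199. The other probe of Cacng1 was above background on only 2 of the 16 arrays. After quantile normalization the gene was not called in any drug group (adjusted p from 0.409 to 0.918), and no fold is given, since the log2 bounds were below 0. Summed levels of 5 skeletal muscle markers were 0.0749 to 0.0925 on TBI arrays and 0.157 to 0.325 on drug arrays, and their part was not tested. Of these markers Ckm, Myh4 and Tnnt3 were above background on no TBI array. All tested probes also had a median log2 change of 0.79 to 1.08 against TBI.

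Cacnb4 had one of the 5 largest fitted changes in TBI+E2 rats, the other 4 being against TBI values not above background. Its level was 0.294 and 0.346, above all 3 TBI arrays. The log2 change was 2.35 ± 0.31 (adjusted p = 5.59e-05), and 1.22 after quantile normalization (adjusted p = 0.0182). Of 18 alternatives 1 lost the call for Cacnb4 (adjusted p = 0.135). The other probe of Cacnb4, above background on both TBI+E2 arrays and no TBI array, was at least 2.74-fold higher, but was not called after quantile normalization (adjusted p = 0.691).

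The direction of Scn1a depended on the scaling. TBI+E2 vs. TBI was 0.60 ± 0.22 with the percentile scaling (adjusted p = 0.0304), or -0.48 relative to the median of all probes, and -0.15 after quantile normalization (adjusted p = 0.537). In TBI+JM6 and TBI+PMI-006 the change was 0.19 (adjusted p = 0.412) and 0.01 (adjusted p = 0.958) with the percentile scaling, and -0.56 (adjusted p = 0.0162) and -0.59 (adjusted p = 0.0171) after quantile normalization.

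Further genes called after quantile normalization were looked at once their values were seen. Cacna1s, the skeletal muscle pore, which is dim here (0.0175 to 0.0249 in TBI), was lower in all 3 groups after quantile normalization (-1.56, -1.52 and -1.31, adjusted p = 0.0011, 0.00203 and 0.00596) but with the percentile scaling it was called higher in TBI+E2 (0.89, adjusted p = 0.0136) and not called in the other drug groups (0.37 and 0.13). Cacna1b was lower after quantile normalization in TBI+JM6 (-0.54, adjusted p = 0.0175) and TBI+PMI-006 (-0.56, adjusted p = 0.0206), and its changes with the percentile scaling were 0.31 and 0.13 there, neither called. In TBI+E2 it was called higher with the percentile scaling (0.50, adjusted p = 0.0181) and had a change of -0.39 after quantile normalization (adjusted p = 0.105). Cacna2d1 was lower after quantile normalization in TBI+JM6 (-0.61, adjusted p = 0.0114) and TBI+E2 (-0.68, adjusted p = 0.0152), against -0.01 and -0.08 with the percentile scaling, neither called. Cacnb4 rose in TBI+JM6 on both scales (1.92, and 0.82 after quantile normalization, adjusted p = 0.0447).

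**Figure D3:**
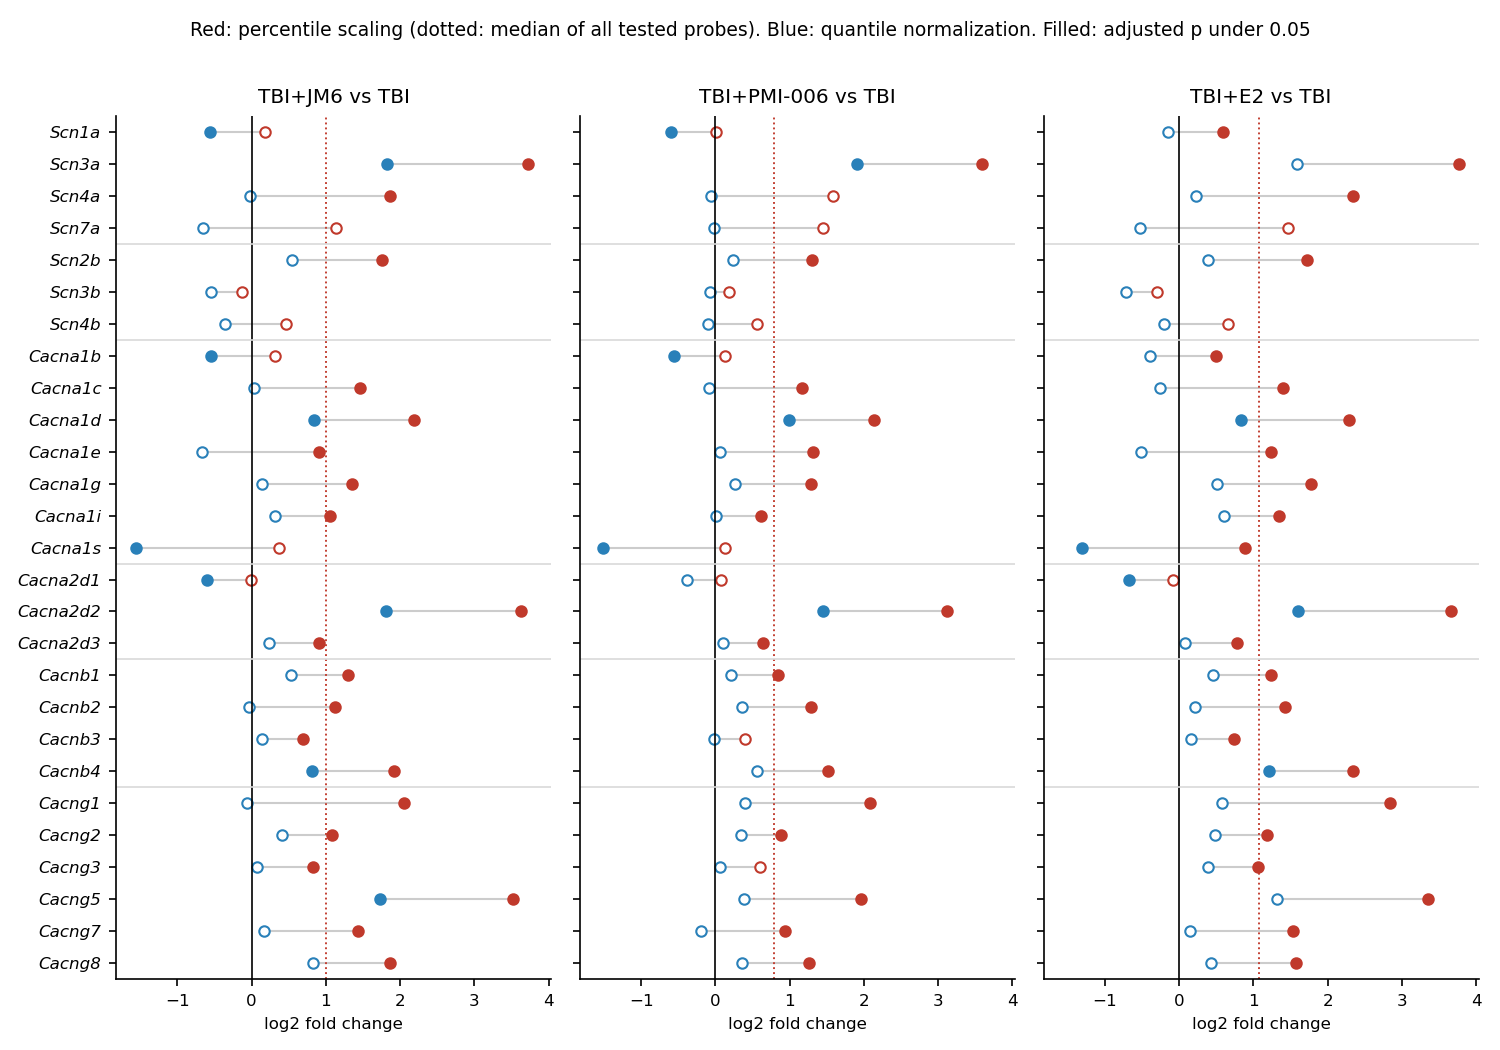
Log2 fold change vs. TBI (x axis) of the 27 tested channel genes (y axis) in the 3 drug groups, with the percentile scaling in red and after quantile normalization in blue. Filled points passed an adjusted p of 0.05 and the dotted line is the median of all tested probes with the percentile scaling (0.995, 0.79 and 1.08). The red points of Scn1a, Cacna1b, Cacna1s and Cacna2d1 lie left of the dotted line in every panel, and those of Scn3a, Cacna2d2 and Cacna1d lie right of it.

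The drug groups were scanned in one session and were compared with each other directly. No channel gene was called between TBI+JM6 and TBI+PMI-006 (background 0.0131%), TBI+JM6 and TBI+E2 (0.0175%) or TBI+PMI-006 and TBI+E2 (0.11%), by limma with either scaling. At an unadjusted p under 0.05 there were 1, 0 and 6 genes of 27, where 8.84%, 2.81% and 15% of all tested probes reached it. The 1 gene was Cacng5, with 0.0459, 0.0369 and 0.0679 in TBI+JM6 and 0.0168, 0.0221 and 0.0121 in TBI+PMI-006 rats, the latter not above background. The TBI+JM6 level was higher by at least 2.56-fold and did not pass (adjusted p = 0.344), and the filter on dim probes kept it through TBI+JM6 alone. The 6 genes, all lower in TBI+PMI-006 than in TBI+E2, were Cacna1b, Cacna1i, Cacna1s, Cacnb4, Cacng5 and Scn1a, with adjusted p from 0.206 to 0.325. The differences were -0.37 to -0.83 in the 5 genes other than Cacng5, which was above background on no TBI+PMI-006 array and 1 of 2 TBI+E2 arrays. For Scn1a the difference was -0.58 (95% interval -1.07 to -0.10, adjusted p = 0.247). Over all tested probes the median difference between TBI+PMI-006 and TBI+E2 was -0.258, and only 18.7% of probes were higher in TBI+PMI-006. The lower direction was thus shared with most of the array. No slide held arrays of both groups, so drug and slide cannot be told apart there.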

How the data were processed

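Hippocampal RNA of 16 rats was hybridised to single-colour Agilent rat arrays, and the labels call the samples of a group biological replicates. The deposited scanner files hold the intensity of each spot, which Agilent Feature Extraction 9.5.3.1 had background subtracted and detrended, and which the authors had not yet normalized between arrays. The deposited matrix, used as an alternative, holds a linear ratio. Its median (0.14), minimum (0.02) and maximum (352.62) are the same on every array, as they would be after quantile normalization. The amplification kit of each rat is not given in the sources used here.

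The 42877 non-control spots were averaged to 30367 probes. Signals were scaled to the 75th percentile over the probes of an array that exceeded background, then put on the log2 scale. A probe entered the test if all arrays of any group detected it (22827 probes). Limma was run once on all arrays (10 residual degrees of freedom), with calls at 0.05 after Benjamini-Hochberg adjustment over all tested probes. Where no array of a group detected a probe, a bound was taken against the dimmest detected probe of each array. An adjusted p given beside a bound is that of the fitted change, not of the bound. A spot of Cacng3 was marked by the scanner software on TBI+JM6 array 1 and left out there. P-values measure the spread between these arrays, whose number limits the precision.

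Folds are given for Scn1a where called, for every called member among Naïve, Sham and TBI, for the 5 largest called rises and falls against TBI, and for partner genes called in TBI vs. Sham. Members and lists (channel partners, and markers of neurons, hippocampal fields, thalamus, astrocytes, microglia, leukocytes, oligodendrocytes and their precursors, endothelium, choroid plexus and skeletal muscle) were chosen with earlier results of these data known. Some genes that the rule or the lists would take are not reported here. Probe positions are those of rn4, whose annotation was not used here. Alternatives were 3 other scalings (quantile, the percentile over all probes, E1A control spots), normexp background correction (offset 50), 2 other filters, the deposited matrix, the methods' t-test, slide or replicate number as a block, removal of a GC trend, averaging the probes of a gene, limma on the compared groups alone, and each array left out in turn. The model was tested on simulated data. R 4.3.3, limma 3.58.1 and Python 3.11.15 were used.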

Additional observations from a re-analysis of the deposited data

How the results depend on the processing

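Of 30 gene results named by rule (15 genes), other settings kept direction and call in 245 of 389 refits, lost the call in 136 and turned the direction in 8. With an array left out, 110 of 162 kept the call, 52 lost it and none turned. Directions turned for Scn1a in TBI+E2 vs. TBI (-0.152 with quantile normalization, -0.236 with the percentile over all probes, -0.086 with E1A scaling, -0.139 with the deposited matrix), for Cacng1 in TBI+JM6 vs. TBI with quantile normalization (-0.069), and for Cacng1 (-0.009) and Cacng5 (-0.24) in TBI+PMI-006 vs. TBI with normexp correction, and Cacng5 was at 0.000 there in the deposited matrix. No TBI array read Cacng1 or Cacng5 above background, and these signs rest on such values. Quantile normalization and the deposited matrix, whose arrays share median, minimum and maximum, cannot be counted as independent settings. E1A scaling and normexp moved the median of all tested probes in TBI vs. Sham from -0.03 to 0.26 and 0.27. The causes were not tested.

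Counts of called channel genes are given for TBI vs. Sham (5), TBI vs. Naïve (2), Sham vs. Naïve (7), and TBI+JM6 (20), TBI+PMI-006 (17) and TBI+E2 (23) vs. TBI. They were 0, 0, 0, 8, 0 and 6 with normexp, 0, 0, 0, 7, 4 and 6 with E1A scaling, 2, 2, 4, 9, 6 and 5 with quantile normalization, and 1, 2, 5, 9, 6 and 6 with the deposited matrix. They were 2, 1, 3, 22, 18 and 24 without a filter, 5, 3, 7, 13, 13 and 15 over probes detected on all arrays, and 4, 3, 8, 12, 12 and 10 with the percentile over all probes. The methods' t-test gave 0, 0, 0, 16, 12 and 10, and limma on the compared groups alone 0, 0, 0, 20, 16 and 20. With the slide as a fixed block, the first 3 counts were 0 each. Leaving out 1 array gave 0 to 7, 0 to 3, 1 to 5, 16 to 21, 13 to 19 and 15 to 24 (15 without TBI+E2 array 2). Between drugs the count was 0 throughout.

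Replicate numbers of the labels did not pair the arrays (36 pairs, r from -0.32 to 0.21, and 6 of 16 arrays correlated best with their own number). With the replicate block the counts were 2, 2, 2, 20, 17 and 23.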
